A study of Homo sapiens with 9 samples.

Results

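The keratins KRT1, KRT2, KRT4, KRT10, KRT13, KRT23, KRT77, KRT78 and KRT80 were followed in HaCaT cells treated with EGF or bleogen pB1. These 9 genes were taken by name as keratins of suprabasal, differentiating epithelial layers, out of 16199 genes and 40 keratin genes listed in at least 1 library. HaCaT is an immortalized line of human keratinocytes, and its genotype was given as WT. RNA-seq libraries came from 3 groups of 3 replicates, all grown past confluence and all in serum-free medium. The untreated group received no factor, the EGF group received epidermal growth factor at 10 nM for 24 h, and the third group received bleogen pB1 at 1 µM for 24 h. Bleogen pB1 is a cactus-derived peptide that acts on the EGF receptor, and the study compared each treatment with untreated cells. The doses of the treatments differ, all cells are of 1 line, and no source says whether replicates were separate cultures, so the p-values measure only the spread between these libraries, which may be technical.

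Keratins are the intermediate filament proteins of epithelia, and each filament is built from pairs of a type I and a type II chain. Basal keratinocytes make KRT5 with KRT14. When cells leave the basal layer of the epidermis they switch to KRT1 with KRT10, whereas cells above the basal layer of mucosal epithelia such as the oesophagus use KRT4 with KRT13. KRT2 is a type II keratin of the uppermost spinous and granular epidermis. KRT77, a close relative of KRT1, is known from sweat gland ducts, KRT78 and KRT80 are type II keratins of differentiating epithelia, and KRT23 is a type I keratin with a less defined role. EGF receptor activity is known to hold back the switch to suprabasal keratins in cultured keratinocytes.

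All 9 genes lie on the minus strand of GRCh38 in the 2 keratin clusters (GENCODE release 44). The type II genes on chromosome 12 are KRT80 (52168996 to 52192014), KRT2 (52644558 to 52652211), KRT1 (52674736 to 52680407), KRT77 (52689626 to 52703524), KRT4 (52806549 to 52814116) and KRT78 (52837804 to 52849092). The type I genes on chromosome 17 are KRT10 (40818117 to 40822614), KRT23 (40922700 to 40937646) and KRT13 (41500981 to 41505705). The canonical transcripts of KRT10 and KRT13 have 8 exons and those of the other members 9. No stretch of 100 bases in an annotated transcript of a member occurred in another gene on the same strand.

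Promoter sequences of 3 of the 9 members, KRT2, KRT4 and KRT10, were matched in the RefSeq table (GRCh38.p14). KRT4 and KRT10 are shown because their transcripts moved in opposite directions under EGF. Each sequence is the 250 bases before the transcription start, read 5′ to 3′ on the minus strand (KRT4, chr12:52814117-52814366, and KRT10, chr17:40822615-40822864), and the capitals mark the core of a TATA box.
KRT4: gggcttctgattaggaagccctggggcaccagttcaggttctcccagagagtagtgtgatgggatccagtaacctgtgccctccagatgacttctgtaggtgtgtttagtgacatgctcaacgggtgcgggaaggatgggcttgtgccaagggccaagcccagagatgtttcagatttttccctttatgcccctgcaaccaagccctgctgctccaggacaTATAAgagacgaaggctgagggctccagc
KRT10: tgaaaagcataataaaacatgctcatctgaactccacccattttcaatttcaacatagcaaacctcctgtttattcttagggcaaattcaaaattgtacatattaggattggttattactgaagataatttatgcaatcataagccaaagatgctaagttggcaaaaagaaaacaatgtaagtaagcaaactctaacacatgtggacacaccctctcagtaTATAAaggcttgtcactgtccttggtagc
In both promoters the TATAA starts at position -29 from the transcription start. On either strand TATAA was found in 18.9% of 35116 promoters of this length and in all 3 members, and its longer form TATAAA in 10.7% and in KRT10. GATAA was found in 20.4% of promoters and in KRT2 and KRT10. The AP-1 motif TGANTCA (6.57% of promoters), the GC box CCGCCC (42.6%) and the E-box CACGTG (6.34%) were not in these 3 windows.

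The expected counts (estimated fragments per gene) summed to between 20288417 and 21320994 per library, so that 3 counts, the smallest level taken as detectable, came to 0.141 to 0.148 CPM (counts scaled to library size). This floor covers counting error only. All 8 keratinocyte markers checked were measured, with summed levels of 12867 to 14117 CPM in untreated, 10999 to 11756 CPM in EGF-treated and 12950 to 14883 CPM in bleogen pB1-treated cells. Single markers went both ways under EGF, with KRT5, CDH1, DSP and PKP1 lower and KRT14, TP63, SFN and ITGA6 higher. KRT5, the largest part of the sum, went from 7236 to 8106 CPM in untreated to 3472 to 3712 CPM in EGF-treated cells. ITGA6 went from 577 to 592 CPM to 1314 to 1569 CPM. All 7 fibroblast markers had a count, with a sum of 7.62 to 9.31 CPM in untreated, 1.30 to 2.00 CPM in EGF-treated and 6.08 to 9.17 CPM in bleogen pB1-treated cells. Of 6 immune markers 5 had a count, mostly of CD68, with a sum of 12.4 to 14.0, 20.5 to 22.3 and 12.1 to 12.6 CPM in the same order, and CD207 was at 0. Of 6 melanocyte markers 5 had a count, mostly of MITF, with a sum of 6.88 to 9.17, 5.24 to 6.60 and 6.82 to 7.96 CPM, and TYR was at 0. The 5 endothelial markers summed to 1.39 to 1.52, 0.25 to 0.65 and 0.80 to 1.34 CPM. The fibroblast sum was lower and the immune sum higher in the EGF group, and the part of either in the results below was not tested. In such bulk RNA fewer cells of a type and less RNA per cell cannot be told apart. Among replicates, replicates 1 and 2 differed most in both treated groups, with a chi-square per gene of 20.3 under EGF and 20.6 under bleogen pB1, against 3.81 to 7.40 between untreated replicates.

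In untreated cells the suprabasal keratins spanned a wide range of levels, with the mucosal KRT13 far above the epidermal pair. Levels are given as FPKM (fragments scaled for gene length and depth), which allows different genes to be compared. KRT13 stood at 1020.2, 1045 and 967 FPKM in untreated replicates 1 to 3. It was ranked 57th to 66th of all genes listed in those libraries, and its mean was 30.6 times that of KRT80, the next member. KRT80, a type II keratin found at cell margins, stood at 33.5, 32.4 and 33.2 FPKM. KRT4, the type II partner of KRT13, stood at 20, 22.9 and 21.2 FPKM. The epidermal KRT10 stood at 9.67, 11.8 and 11.35 FPKM, and its partner KRT1 at 3.40, 3.29 and 2.30 FPKM. These 5 neighbours in the order did not overlap between libraries. KRT77 followed at 0.04 to 0.15 FPKM, overlapping KRT23 at up to 0.05 FPKM, which overlapped KRT78 at 0.02 FPKM. KRT2 had no entry in an untreated library.

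**Figure D1:**
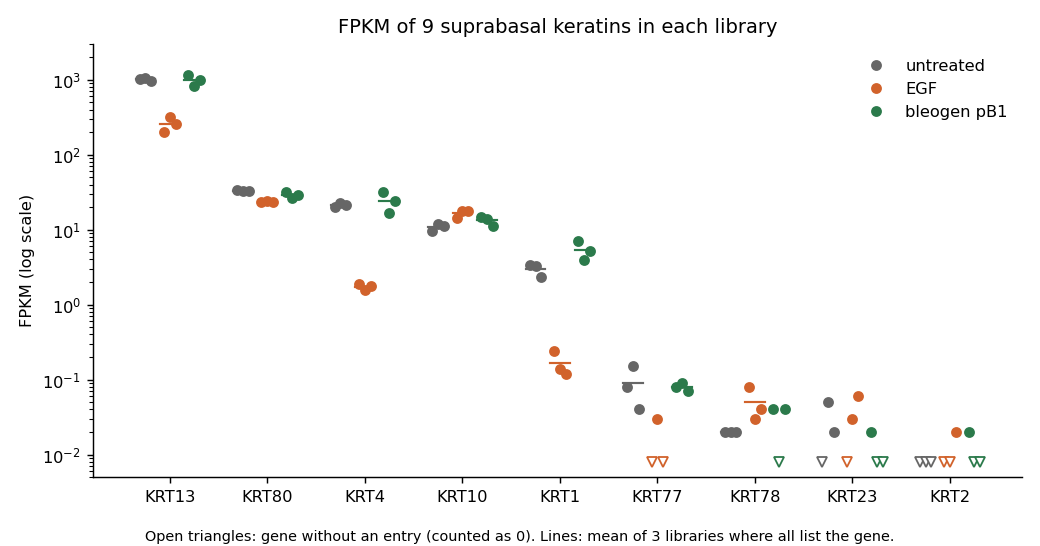
FPKM on a log axis of the 9 suprabasal keratins in each of the 9 libraries, ordered by their level in untreated cells. Points are libraries, short lines are means of 3 libraries, and open triangles mark libraries without an entry for the gene. KRT13 falls from 967 to 1045 FPKM in untreated to 200.1 to 320.15 FPKM in EGF-treated cells, and KRT77, KRT78, KRT23 and KRT2 stay at or below 0.15 FPKM in all groups.

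EGF lowered the epidermal KRT1 and the mucosal pair KRT4 and KRT13, and raised KRT10. Of the 9 members 5 (KRT1, KRT4, KRT10, KRT13 and KRT80) passed the filter on low counts, and of these 3 fell and 1 rose against untreated cells once both limits were applied (edgeR adjusted p no higher than 0.05, fold change no smaller than 0.5 on the log2 scale in either direction). In the same fit of 12394 genes 36.9% were called, with 21.8% lower and 15.1% higher. The median log2FC of the 5 members was -1.90, beside -0.01 over all genes tested. KRT1 passed the filter through its untreated and bleogen pB1 libraries, where it was high, and it is part of the count of falls and of this median. With at least 10 counts required in every library KRT1 was not tested, and the 3 members called were KRT4 and KRT13, lower, and KRT10, higher. With upper-quartile scaling factors the median over all genes moved to -0.12 and the share of called genes that were higher from 41.0% to 30.2%. KRT1, KRT4, KRT10 and KRT13 kept their directions and calls there.

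KRT1, the type II chain of the epidermal suprabasal pair, had 166, 159 and 113 expected counts in untreated and 12, 7 and 6 in EGF-treated cells. This corresponded to 3.40, 3.29 and 2.30 FPKM against 0.24, 0.14 and 0.12 FPKM. The groups did not overlap, and each EGF library lay above the floor of 3 counts. Mean levels were 7.07 ± 1.45 CPM in untreated and 0.414 ± 0.164 CPM in EGF-treated cells (SD, n = 3), a log2FC of -4.08 (SE 0.34, edgeR adjusted p = 5.1e-07). Of the 12394 genes 50 had a lower log2FC. KRT1 was called lower in all 19 alternatives that tested it, with a log2FC between -4.44 and -1.77, the smallest with limma on log2(FPKM + 1), a scale that understates the change of low genes.

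KRT4 had 852, 964 and 906 expected counts in untreated and 82, 66 and 78 in EGF-treated cells. Its level dropped from between 20 and 22.9 FPKM to between 1.55 and 1.90 FPKM, with no overlap. The log2FC was -3.56 (SE 0.22, edgeR adjusted p = 4.4e-08), or 11.8-fold lower, and 87 genes had a lower log2FC. KRT13, its type I partner, had 34473, 34953 and 32805 expected counts in untreated and 6848, 10865 and 8993 in EGF-treated cells. All EGF libraries, at 200.1, 320.15 and 253.6 FPKM, lay below all untreated libraries. The log2FC of KRT13 was -1.90 (SE 0.15, edgeR adjusted p = 3.3e-07), 3.74-fold lower, and 443 genes had a lower log2FC. At this level KRT13 still had the highest FPKM of the 9 members in EGF-treated cells, 10.9 times that of KRT80. In the annotation an unnamed long non-coding RNA lies on the opposite strand of KRT13 and covers 14.0% of its 100-base windows, and it was not stated whether the counting used the strand.

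KRT80 stood at 33.5, 32.4 and 33.2 FPKM in untreated and at 23.2, 24.0 and 23.45 FPKM in EGF-treated cells. The groups did not overlap and the replicates were close together. The log2FC of -0.42 (SE 0.07, 95% CI -0.57 to -0.28, edgeR adjusted p = 0.00011) stayed under the fold limit of 0.5. With upper-quartile factors it was -0.53 (edgeR adjusted p = 2.5e-05) and passed it.

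KRT10, the type I partner of KRT1, was the member that rose. It had 415, 501 and 489 expected counts in untreated and 620, 763 and 797 in EGF-treated cells. Its levels of 14.3, 17.7 and 17.7 FPKM under EGF lay above the untreated 9.67, 11.8 and 11.35 FPKM in every library. The means were 35.9 ± 4.27 and 22.7 ± 2.38 CPM (SD, n = 3), a log2FC of 0.67 (SE 0.12, 95% CI 0.40 to 0.93, edgeR adjusted p = 0.00037), or 1.59-fold higher. Over the 20 alternatives tried its log2FC ranged from 0.56 to 0.76 and the adjusted p from 1.2e-06 to 0.0051. An antisense gene, KRT10-AS1, overlaps KRT10 on the opposite strand but shares none of its 100-base transcript windows. It had 291, 326 and 297 expected counts in untreated, 298, 337 and 346 in EGF-treated and 330, 348 and 341 in bleogen pB1-treated cells.

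**Figure D2:**
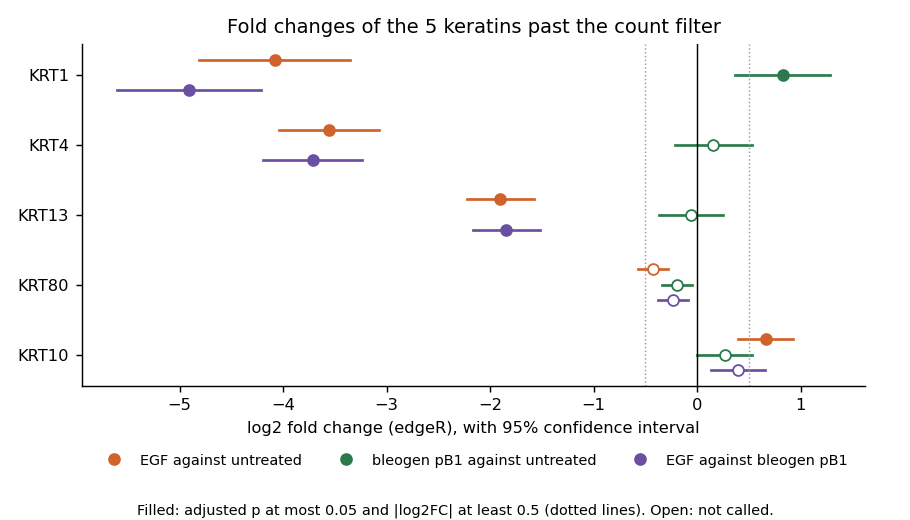
Log2 fold changes (edgeR) of the 5 suprabasal keratins that passed the count filter, with 95% confidence intervals, in the 3 comparisons of the groups. Filled points passed the limits on adjusted p (0.05) and on fold change (0.5, dotted lines), and open points did not. KRT1, KRT4 and KRT13 lie between -4.91 and -1.84 in both comparisons of EGF. Under bleogen pB1 the filled point is KRT1 at 0.83 (edgeR adjusted p = 0.048), a call that held in 10 of 19 alternatives.

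With these changes the balance within the keratin pairs differed between the groups. The FPKM of KRT10 was 2.84, 3.59 and 4.93 times that of KRT1 in untreated cells, and 59.5, 126.7 and 147.8 times that of KRT1 in EGF-treated cells. The ratios under EGF rest on 12, 7 and 6 expected counts of KRT1, so their size is imprecise from counting error alone. The ratio of KRT13 to KRT4 was 51.0, 45.7 and 45.6 in untreated and 105.3, 206.5 and 144.9 in EGF-treated cells. In both pairs the type I chain was in excess in all libraries, and the ratios of EGF-treated and untreated cells did not overlap. The 9 suprabasal keratins together made up 10.2%, 10.2% and 10.3% of the FPKM of all keratins in untreated and 2.43%, 3.36% and 2.84% in EGF-treated cells. KRT13 contributed 93.4% to 93.9% of the members' FPKM in untreated and 83.4% to 88.0% in EGF-treated cells. Among the keratins KRT13 had rank 4 or 5 in untreated cells and rank 9 under EGF. The FPKM of all keratins summed to 10052 to 10941 in untreated and 9886 to 10817 in EGF-treated cells, which overlapped.

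**Figure D3:**
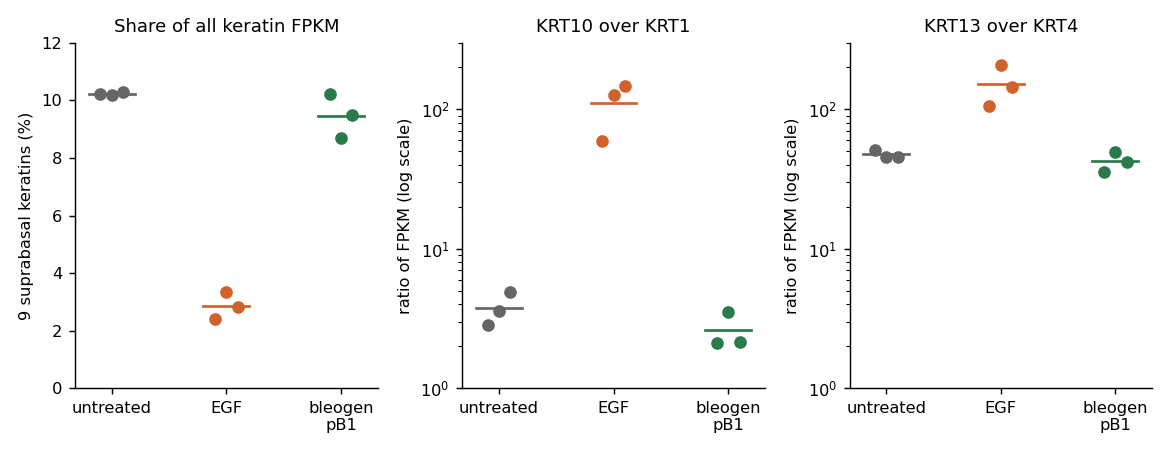
The share of the 9 suprabasal keratins in the FPKM of all keratins (left, percent), and the FPKM ratios of KRT10 to KRT1 (middle) and KRT13 to KRT4 (right, both on log axes), in each library. Points are libraries and lines are means of 3 libraries. The share is 2.43% to 3.36% under EGF against 8.71% or more in the other libraries. The KRT10 to KRT1 ratio is 59.5 or more under EGF, where KRT1 had 6 to 12 expected counts per library, against 4.93 or less elsewhere.

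Under bleogen pB1 KRT1 was called higher, a call that held in 10 of 19 alternatives. The other 4 suprabasal keratins tested did not pass the thresholds. KRT1 was thus 1 of the 5 members past the filter, in a comparison in which 1.48% of the 12394 genes were called, 0.218% higher and 1.26% lower. The median log2FC of the 5 members was 0.16, beside 0.00 over all genes tested. The untreated libraries of this comparison are those of the EGF comparison.

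KRT1 had 343, 199 and 257 expected counts in bleogen pB1-treated cells against 166, 159 and 113 in untreated cells. Its levels of 7.01, 3.98 and 5.19 FPKM lay above the untreated 3.40, 3.29 and 2.30 FPKM, with the second bleogen pB1 library close to the first untreated library. The means were 12.6 ± 3.60 and 7.07 ± 1.45 CPM (SD, n = 3), and the log2FC was 0.83 (SE 0.21, 95% CI 0.37 to 1.28, edgeR adjusted p = 0.048). The direction was the same in 19 of 19 alternatives and the call held in 10, with an adjusted p of 0.011 to 0.15. Of the fits without 1 of the 6 libraries compared, the call held without bleogen pB1 replicate 2 (log2FC 1.00, edgeR adjusted p = 0.026). Without untreated replicates 1, 2 or 3 the log2FC was 0.93, 0.90 and 0.67 (edgeR adjusted p = 0.14, 0.12 and 0.15). Without bleogen pB1 replicates 1 or 3 it was 0.59 and 0.85 (edgeR adjusted p = 0.069 and 0.15). The call also ended without EGF replicate 3, a library that is not part of the comparison but shares the estimate of spread (edgeR adjusted p = 0.082).

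The other members tested had smaller differences under bleogen pB1. KRT10 stood at 14.9, 14.0 and 11.2 FPKM, overlapping the untreated libraries, with a log2FC of 0.27 (95% CI -0.00035 to 0.54, edgeR adjusted p = 0.23). KRT4 ranged most widely, at 32.0, 16.55 and 23.9 FPKM on both sides of the untreated values, with a log2FC of 0.16 (95% CI -0.22 to 0.53, edgeR adjusted p = 0.63). Without bleogen pB1 replicate 1 its log2FC was -0.10. KRT13 stood at 1142, 821 and 995 FPKM, again on both sides of the untreated values, with a log2FC of -0.06 (95% CI -0.37 to 0.25, edgeR adjusted p = 0.85). Without bleogen pB1 replicate 2 it was 0.056. KRT80 stood at 31.9, 26.5 and 29.4 FPKM, below all untreated libraries, with a log2FC of -0.19 (95% CI -0.34 to -0.05, edgeR adjusted p = 0.11). The intervals of KRT4 and KRT10 reach past 0.5 and those of KRT13 and KRT80 do not.

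The bleogen pB1 libraries differed more among themselves in these genes than the untreated libraries. KRT1, KRT4, KRT13 and KRT80 were each highest in replicate 1, intermediate in replicate 3 and lowest in replicate 2, whereas KRT10 was lowest in replicate 3. The SD of KRT13 was 263.7 CPM in bleogen pB1-treated and 75.9 CPM in untreated cells, and that of KRT4 was 15.9 and 3.19 CPM. The ratios of FPKM of KRT10 to KRT1 were 2.12, 3.53 and 2.15 and those of KRT13 to KRT4 were 35.7, 49.6 and 41.7, overlapping the untreated values. The share of the 9 members in all keratin FPKM was 10.2%, 8.71% and 9.50%.

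Between the treatments KRT1, KRT4 and KRT13 were lower in EGF-treated than in bleogen pB1-treated cells, at the different doses used. These 3 of the 5 members tested were called, in a comparison in which 28.8% of the genes were called, 18% lower and 10.8% higher under EGF. The median log2FC of the 5 members was -1.84, beside -0.01 over all genes. KRT1, which passed the filter through its untreated and bleogen pB1 libraries, is part of this count and median. With at least 10 counts required in every library it was not tested, and 2 members were called. KRT1 had a log2FC of -4.91 (SE 0.32, edgeR adjusted p = 9.1e-08), and 18 of the 12394 genes had a lower log2FC. Over 19 alternatives its log2FC was between -5.26 and -2.43, again the smallest with limma on log2(FPKM + 1). KRT4 had a log2FC of -3.71 (SE 0.22, edgeR adjusted p = 4.2e-08) and KRT13 of -1.84 (SE 0.15, edgeR adjusted p = 5.9e-07). KRT10 was not called, with a log2FC of 0.40 (SE 0.12, 95% CI 0.14 to 0.66, edgeR adjusted p = 0.013), nor was KRT80, with a log2FC of -0.23 (SE 0.07, 95% CI -0.38 to -0.09, edgeR adjusted p = 0.0095). For these 5 members the exact permutation test of 3 against 3 libraries cannot give a p under 0.1, the value reached where groups do not overlap.

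The 4 members below the filter were near the floor of detection in all groups. KRT77, the relative of KRT1, had 5, 10 and 3 expected counts in untreated, 0, 2 and 0 in EGF-treated and 5, 6 and 5 in bleogen pB1-treated cells. Its EGF libraries lay below all other libraries. Summed over replicates and scaled to the totals, 2 counts under EGF against 18 in untreated cells gave a ratio of 0.109 (exact 95% interval 0.0123 to 0.456, counting error only), and against 16 counts under bleogen pB1 a ratio of 0.125 (0.0140 to 0.533). In a fit without the count filter the log2FC of KRT77 was -2.92 (SE 0.95, edgeR adjusted p = 0.014) against untreated and -2.71 (SE 0.97, edgeR adjusted p = 0.029) against bleogen pB1-treated cells. KRT78 had 1 count in each untreated library, 4, 2 and 2 under EGF and 2, 0 and 2 under bleogen pB1. Its ratio of 8 counts under EGF to 3 in untreated cells was 2.62 (0.629 to 15.3). KRT23 had between 0 and 2 counts in all libraries. KRT2, the keratin of the upper epidermis, had 1 count in EGF replicate 3, 1 in bleogen pB1 replicate 1 and 0 elsewhere. For KRT2, KRT23 and KRT78 a difference was not detectable at this depth.

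In the gene lists that follow, the shares of all 12394 genes to set beside the counts are those above, 15.1% higher and 21.8% lower under EGF and 0.218% higher and 1.26% lower under bleogen pB1. Of 6 other suprabasal keratins, KRT3 of the cornea and KRT9 of palms and soles passed the filter, and neither was called against untreated cells. KRT3 had a log2FC of -0.58 under EGF (SE 0.26, edgeR adjusted p = 0.066), and it was called lower in 5 of 19 alternatives, upper-quartile and no scaling factors among them. KRT9 had a log2FC of -0.28 (SE 0.20, edgeR adjusted p = 0.24). Both were lower in EGF-treated than in bleogen pB1-treated cells, with log2FC of -0.91 (SE 0.25, edgeR adjusted p = 0.0076) and -0.69 (SE 0.19, edgeR adjusted p = 0.0075). With limma on log2(FPKM + 1) these were -0.36 and -0.39, under the fold limit. KRT76 and KRT79 had at most 1 count in a library, and no value was listed for KRT12 and KRT24.

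Basal keratins changed in both directions under EGF, with 2 of 3 lower and 1 higher. KRT5 fell from 7811 ± 499 to 3604 ± 122 CPM (SD, n = 3, log2FC -1.12, edgeR adjusted p = 1.7e-07), and KRT15 fell from 443 ± 3.92 to 123 ± 9.98 CPM (log2FC -1.85, edgeR adjusted p = 2.2e-07). KRT14, the type I partner of KRT5, rose from 1578 ± 138 to 2908 ± 38.0 CPM (log2FC 0.88, edgeR adjusted p = 3e-07). In this pair, as in that of KRT1 and KRT10, the type II chain was lower and the type I chain higher. Other pairs moved together under EGF. KRT4 and KRT13 both fell (log2FC -3.56 and -1.90), and KRT8 and KRT18 both rose (log2FC 1.89 and 1.81). Under bleogen pB1 none of the 3 basal keratins was called, and KRT14 had a log2FC of 0.48 (SE 0.07, edgeR adjusted p = 0.0017), under the fold limit. KRT14 was called higher under bleogen pB1 in 4 of 20 alternatives, the 3 limma fits (log2FC 0.50 to 0.51) and without untreated replicate 2 (log2FC 0.54).

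Of the 5 wound-induced keratins, which mark activated keratinocytes, 3 were tested. KRT6A and KRT16 rose under EGF, with log2FC of 2.29 (SE 0.08, edgeR adjusted p = 3.8e-10) and 1.95 (SE 0.14, edgeR adjusted p = 1.7e-07). They also rose under bleogen pB1, with log2FC of 0.52 (SE 0.08, edgeR adjusted p = 0.0026) and 0.93 (SE 0.15, edgeR adjusted p = 0.0036). The call of KRT6A under bleogen pB1 ended without untreated replicate 3 (log2FC 0.49) and without bleogen pB1 replicate 2 (log2FC 0.46). KRT17 had a log2FC of -0.46 under EGF (edgeR adjusted p = 0.0016) and of 0.47 under bleogen pB1 (edgeR adjusted p = 0.027), both under the fold limit, and it was called lower under EGF in 6 of 20 alternatives, upper-quartile and no scaling factors among them, and higher under bleogen pB1 without untreated replicate 2 (log2FC 0.55) or bleogen pB1 replicate 2 (log2FC 0.58). KRT6B and KRT6C did not pass the filter, at 0.593 ± 0.299 and 0.148 ± 0.00356 CPM under EGF and at most 0.0778 CPM on average in the other groups. Reads of KRT6A, KRT6B, KRT6C, KRT14, KRT16 and KRT17 could be shared with near-identical copies, so their values are uncertain.

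Keratins of simple epithelia also split under EGF. KRT8 and its partner KRT18 rose, with log2FC of 1.89 (SE 0.10, edgeR adjusted p = 8e-09) and 1.81 (SE 0.07, edgeR adjusted p = 5.9e-10), while KRT7 and KRT19 fell, with log2FC of -0.68 (SE 0.11, edgeR adjusted p = 0.00012) and -0.55 (SE 0.11, edgeR adjusted p = 0.00051). The call of KRT19 ended without EGF replicate 1 (log2FC -0.45). KRT8 and KRT18 have many processed pseudogenes, so that their counts are uncertain. Under bleogen pB1 none of the 4 tested was called, and KRT20 did not pass the filter, at 0.22 ± 0.11 CPM.

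Genes of the spinous and granular layers, where the suprabasal keratins are made, were measured sparsely, with 8 of 21 past the filter. Under EGF 4 of the 8 fell and 1 rose, where 21.8% and 15.1% of all genes did, with a median log2FC of -0.85 beside -0.01 over all genes. CNFN and CASP14 passed the filter through their untreated and bleogen pB1 libraries, at means of 0.215 and 0.196 CPM under EGF, as KRT1 did. Involucrin (IVL), a precursor of the cornified envelope, fell from 14.2 ± 1.16 to 0.906 ± 0.248 CPM (SD, n = 3, log2FC -3.96, SE 0.32, edgeR adjusted p = 3.7e-07). Transglutaminase 1 (TGM1), which crosslinks that envelope, fell with a log2FC of -1.81 (SE 0.19, edgeR adjusted p = 3.8e-06), and cornifelin (CNFN) with -2.36 (SE 0.40, edgeR adjusted p = 0.00019). CASP14, named after its values were seen, stood at 0.196 ± 0.125 CPM under EGF and 0.647 ± 0.312 CPM in untreated cells, and these libraries overlapped. Its log2FC was -1.68 (edgeR adjusted p = 0.015), and its call ended without EGF replicate 1, untreated replicate 1 or untreated replicate 2 (edgeR adjusted p = 0.054, 0.06 and 0.061). The envelope precursor SPRR1B rose from 0.919 ± 0.27 to 12.1 ± 1.49 CPM (log2FC 3.71, SE 0.20, edgeR adjusted p = 1.3e-08). Below the filter, and named after their values were seen, SPRR1A, SPRR2A and SPRR3 were also higher under EGF without overlap. Their means were 0.561, 0.743 and 0.214 CPM under EGF against 0.178, 0.128 and 0.0161 CPM in untreated cells. DSC1 was lower without overlap (0.0160 against 0.144 CPM), and the other genes below the filter overlapped. The other genes tested, also named after their values were seen, were FLG, LYPD3 and SPINK5, and none was called under EGF. FLG stood at 193 ± 25.8 CPM in untreated and 191 ± 30.7 CPM in EGF-treated cells (log2FC -0.02, edgeR adjusted p = 0.89). LYPD3 and SPINK5 had log2FC of 0.16 and 0.03 (edgeR adjusted p = 0.075 and 0.86). Under bleogen pB1 SPRR1B was the gene called, with a log2FC of 1.27 (SE 0.24, edgeR adjusted p = 0.01), and without untreated replicates 2 or 3 its adjusted p was 0.051 and 0.053. IVL was called lower under bleogen pB1 without bleogen pB1 replicate 1 (log2FC -0.82, edgeR adjusted p = 0.026), beside -0.52 (edgeR adjusted p = 0.2) with all libraries. The median log2FC of the 8 genes under bleogen pB1 was 0.02, beside 0.00 over all genes.

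**Figure D4:**
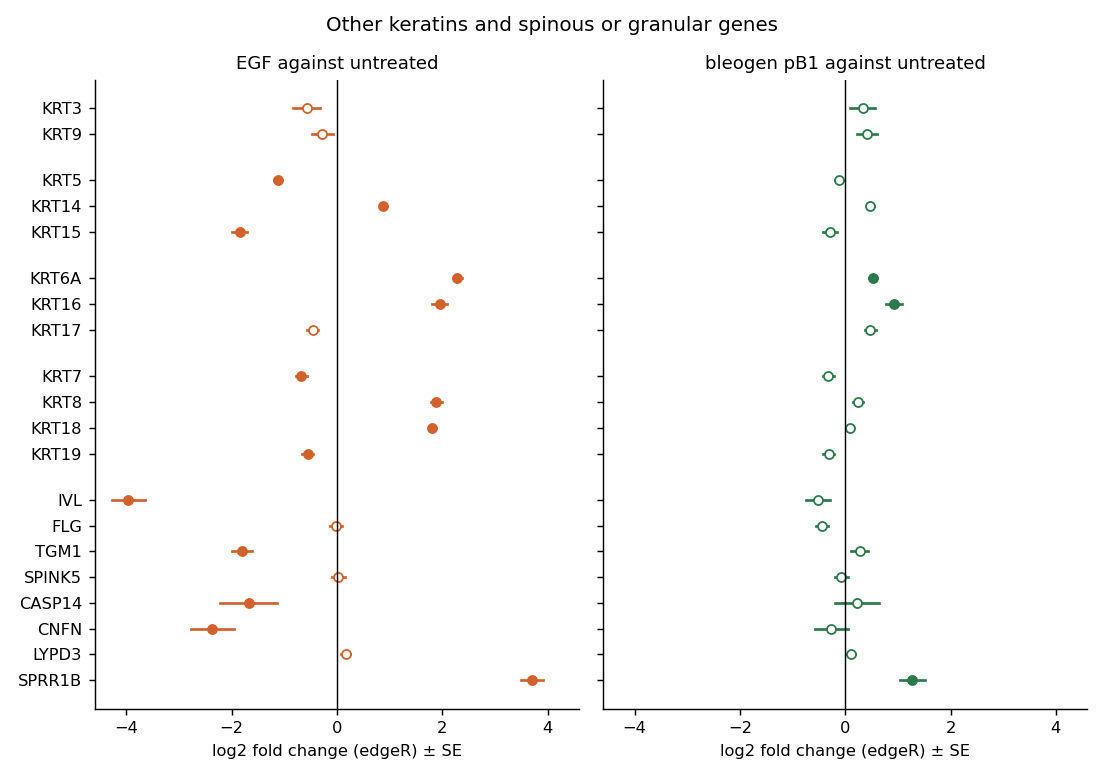
Log2 fold changes (edgeR, bars are ± SE) of other keratins and of spinous or granular genes under EGF (left) and bleogen pB1 (right), each against untreated cells. Blocks from top to bottom are other suprabasal, basal, wound-induced and simple-epithelial keratins and spinous or granular genes, and filled points were called. Under EGF IVL at -3.96 and SPRR1B at 3.71 mark the range, and under bleogen pB1 the filled points are KRT6A, KRT16 and SPRR1B.

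The genes whose levels were most like those of each member were taken by Pearson's r of log2 CPM over the 9 libraries, among 10868 genes. These values describe the libraries, which share groups and controls, and carry no test. For KRT1 they were CDK14 (r = 0.997), GATD1 (r = 0.996) and CERS6 (r = 0.995). For KRT4 they were ADGRL2, SSBP3 and SEMA3C (r = 0.998 each), and for KRT13 LIMCH1 (r = 0.998), KMO (r = 0.995) and NEDD9 (r = 0.995). For KRT80 they were HYAL1 (r = 0.995), TM7SF2 (r = 0.992) and TOB2 (r = 0.991), and for KRT10 NGRN (r = 0.966), LSM4 (r = 0.958) and SPATA2 (r = 0.957). Each of these 5 members differed between the EGF and the untreated libraries without overlap. The share of all genes whose libraries separate in this way was not counted.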

How the data were processed

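HaCaT RNA was sequenced by BGI in 9 libraries of polyadenylated RNA. The kit and sequencer are given as PureLink and BGISEQ in the paper but as RNeasy and DNBSEQ in the labels. The submitters' processing notes give the build GRCh38.p12, and the counting program is not given in the sources used here. In the deposited files each gene has an expected count, estimated by the authors without scaling for depth, and 18.5% of these are not whole. The FPKM deposited beside it was scaled by the authors for gene length and depth, down to 0.01, and genes without an entry were taken as 0. The median total was 20629237 expected counts.

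Samples were grouped by their labels. Rounded expected counts were tested in R 4.3.3 by quasi-likelihood with edgeR 4.0.16 (filterByExpr, 12394 genes, TMM factors, glmQLFit and glmQLFTest, 1 coefficient per group, 9 libraries, 6 residual degrees of freedom, Benjamini-Hochberg adjustment over all genes tested). Genes were called where the adjusted p did not exceed 0.05 and |log2FC| reached 0.5, as in the study, which used DESeq2. CPM used TMM-scaled library sizes. Standard errors are the absolute log2FC divided by the square root of F. Alternatives were DESeq2 1.42.0, edgeR on the 6 libraries compared, other scaling factors (RLE, upper-quartile, none), other count filters, limma 3.58.1 on log2(FPKM + 1) or log2(FPKM + 0.1), a |log2FC| of at least 1, the replicate number as a block, and each replicate left out. The fits were also run on simulated counts with far fewer changed genes than were called under EGF, and no result here rests on that run. Python 3.11.15 and scipy 1.17.1 gave exact tests and intervals.

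The members and gene lists were chosen with earlier results of these data known. Named were all 9 members, every gene of lists of up to 6 genes, from longer lists the 4 with the smallest adjusted p under EGF and any called under bleogen pB1, and the 3 genes most like each member tested (mean of at least 50 counts). The antisense gene KRT10-AS1 is listed under its older symbol, TMEM99.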

Additional observations from a re-analysis of the deposited data

How the results depend on the processing

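Of 297 values of the members' log2FC under the alternatives, 285 kept their direction and their side of the thresholds. The exceptions were 9 fits in which KRT1 was no longer called under bleogen pB1, KRT80 under EGF with upper-quartile factors (log2FC -0.53), and changes of sign in uncalled values under bleogen pB1, KRT4 without bleogen pB1 replicate 1 (range with a replicate left out -0.10 to 0.37) and KRT13 without bleogen pB1 replicate 2 (range -0.18 to 0.056). The number of members called under EGF was 4 with each replicate left out and 3 to 5 in the other settings. It was 5 with DESeq2, with limma on log2(FPKM + 0.1) and without the count filter, in each of which KRT80 was not called. In these fits a member below the filter was called, KRT77 in the fit without the count filter (log2FC -2.92, edgeR adjusted p = 0.014). The number of members called under bleogen pB1 was 0 with upper-quartile factors, with limma over all listed genes at either pseudocount (1 or 0.1 added to FPKM), with a |log2FC| of at least 1, and with at least 10 counts in every library, where KRT1 was not tested. It was 0 to 1 with each replicate left out. Over all genes 183 were called under bleogen pB1, against 99 with limma on log2(FPKM + 1), 31 at a |log2FC| of at least 1, and 102 to 436 with a replicate left out (102 without untreated replicate 1, 436, 109 and 102 without bleogen pB1 replicates 1, 2 and 3). At a |log2FC| of at least 1, 1892 genes were called under EGF in place of 4578, and 1458 between EGF and bleogen pB1 in place of 3564. In that comparison upper-quartile factors moved the share of called genes that were higher from 37.6% to 28.8%. The causes were not tested.

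With the replicate number as a block 4560, 186 and 3550 genes were called under EGF, under bleogen pB1 and between them, with 4, 1 and 3 members, as without the block. Deviations of same-numbered libraries from their group means correlated between -0.03 and 0.207, and those of differently numbered libraries between -0.253 and 0.163. These ranges overlap, so this check cannot decide whether same-numbered libraries were handled together. Depth limits KRT2, KRT23, KRT77 and KRT78, which lie near 3 counts.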

Other observations

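Among 20 regulators of keratinocyte differentiation 18 were tested, and under EGF 4 rose and 6 fell, where 15.1% of all genes rose and 21.8% fell, with a median log2FC of -0.18 beside -0.01 over all genes. NOTCH3, a receptor of spinous commitment, fell from 19.8 ± 1.55 to 6.72 ± 0.702 CPM (SD, n = 3, log2FC -1.55, SE 0.14, edgeR adjusted p = 8.8e-07), and NOTCH1 fell from 186 ± 10.6 to 112 ± 9.66 CPM (log2FC -0.74, SE 0.09, edgeR adjusted p = 1.3e-05). The transcription factors CEBPB and KLF4 rose, with log2FC of 0.84 (SE 0.10, edgeR adjusted p = 1.4e-05) and 0.69 (SE 0.11, edgeR adjusted p = 0.0001). The other rises, TP63 and OVOL1, lay at the fold limit, with log2FC of 0.50 and 0.51, and their calls ended in 9 and 7 of 20 alternatives, upper-quartile and no scaling factors among them and for TP63 also the replicate block. Of the 6 falls, CEBPA was no longer called without EGF replicate 2 (log2FC -0.45), GATA3 without EGF replicate 1 (log2FC -0.47) and ZNF750 with limma on log2(FPKM + 1) (log2FC -0.37). ZNF750 passed the count filter through its untreated and bleogen pB1 libraries, at a mean of 0.198 CPM under EGF. Under bleogen pB1 none of the 18 was called with all 9 libraries in the fit and no block, with a median log2FC of 0.02 beside 0.00 over all genes. GRHL3 stood at 5.18 ± 0.848 CPM beside 3.11 ± 0.425 CPM in untreated cells (SD, n = 3), with a log2FC of 0.73 (SE 0.24, 95% CI 0.22 to 1.25, edgeR adjusted p = 0.096). It was called higher in 4 of 20 alternatives, with the 6 libraries compared (edgeR adjusted p = 0.035), with the replicate block (edgeR adjusted p = 0.05), without EGF replicate 1 (edgeR adjusted p = 0.027) and without bleogen pB1 replicate 1 (log2FC 0.86, edgeR adjusted p = 0.042). NOTCH3 had a log2FC of 0.43 under bleogen pB1 (SE 0.12, 95% CI 0.17 to 0.69, edgeR adjusted p = 0.066), above all untreated libraries in each replicate, and was called without bleogen pB1 replicate 2 (log2FC 0.56, edgeR adjusted p = 0.018). Genes in this paragraph other than NOTCH3, NOTCH1, CEBPB and KLF4 were named after their values were seen.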
